A study of Homo sapiens with 6 samples.

Results

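The transcription factor p53 switches on a set of genes that halt the cell cycle, start cell death, repair DNA and feed back on p53 itself, and 9 of its best known direct targets were read in U87MG glioblastoma cells treated with P-bi-TAT. The genes were chosen by name, with earlier results of these data known, namely MDM2, CDKN1A, BBC3, GDF15, TP53I3, SESN1, ZMAT3, RRM2B and FAS. Of these 9 genes, 8 carried a probe set with 1 gene symbol, among 17687 genes measured in that way, and each of the 8 had 1 probe set. BBC3 was not analysed here. P-bi-TAT is a bivalent compound built on tetrac, a derivative of thyroid hormone, and it acts at the hormone receptor on integrin αvβ3 at the cell surface. U87MG is an established human glioblastoma line. The P-bi-TAT group held 3 arrays of cells treated for 24 h with the compound at 30 µM, and the untreated group held 3 arrays of cells given PBS over the same period. According to the methods, the cells of both groups had been kept in low-serum medium beforehand. Values are log2 expression per probe set on Affymetrix Clariom S arrays, where a difference of 1 is a doubling.

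In unstressed cells p53 is kept low by MDM2, a ubiquitin ligase that marks it for breakdown. Stress signals free p53, which then binds DNA at response elements made of a pair of 10-base elements and raises its targets, MDM2 included, so that the response limits itself. U87MG is known for its loss of CDKN2A, a locus whose ARF product holds MDM2 back. CDKN2A was at 3.01, 2.64 and 2.21 after P-bi-TAT and at 2.57, 2.74 and 2.86 in untreated cells, below the negative control level in each group. That level, the mean of the medians of 612 negative control probe sets in each array of a group, was 3.23 after P-bi-TAT and 3.81 in untreated cells.

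DNA near the start sites of the targets was searched for the element that p53 binds, because the response element is what makes a gene a direct target. RefSeq windows of 300 bases (GRCh38.p14, 250 before and 50 after a start site) were held for 8 of the 9 genes, with 16 windows in all, and not for RRM2B. The search took the p53 consensus response element of 20 bases with no gap between its 10-base elements, CNNG kept in the core of each, and at most 2 other mismatches. The consensus reads the same on both strands. Of all 35116 windows, 0.285% held a match, and of 27305 genes with a window 98 had a match. Among the 8 genes with a window, 2 had a match, MDM2 and FAS. Of 34 other p53 targets with a window 3 did, of which DDB2 and AEN were measured. The 4 sites are shown 5′ to 3′ on the strand of the gene, with the matched 20 bases in capitals and 5 bases on each side in lower case, for comparison with the values of these genes given later.
MDM2: gagctGGTCAAGTTCAGACACGTTCcgaaa
FAS: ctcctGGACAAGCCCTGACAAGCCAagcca
DDB2: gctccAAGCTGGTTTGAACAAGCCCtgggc
AEN: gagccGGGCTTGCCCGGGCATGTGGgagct
The MDM2 site lies at chr12:68808923-68808942 on the plus strand, at position -94 from a downstream start site of the gene. MDM2 is known to have such a second promoter, which responds to p53. The FAS site lies at chr10:88991309-88991328 on the plus strand, at position -122 from a start site. The DDB2 site is at chr11:47214969-47214988 and the AEN site at chr15:88621306-88621325, each on the plus strand. The DDB2 site has 1 mismatch to the consensus and the others have 2. A match describes letters in these windows, and its absence elsewhere says nothing of p53 binding outside them.

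The first P-bi-TAT array, replicate 1, was unlike the rest. Its median over 21448 gene probe sets was 3.52, where replicates 2 and 3 of P-bi-TAT had 4.73 and 4.76 and each untreated array had 4.85. It held 4527 distinct values, the other P-bi-TAT arrays 23438 and 23376 and the untreated arrays 23072 to 23151. It correlated at 0.909 with untreated replicate 1 and at 0.864 to 0.881 with the other arrays, whereas P-bi-TAT replicates 2 and 3 correlated at 0.987 with each other. The negative control medians were 3.20 to 3.27 after P-bi-TAT and 3.67 to 3.98 in untreated cells. The number of arrays limits the precision, and the differences of the p53 targets are therefore given over the 6 arrays and again without that array. The glioma marker VIM was at 14.49 to 16.65 after P-bi-TAT and at 14.92 to 15.45 in untreated cells. GFAP and CHI3L1 were below the negative control level in each group, while CD44, FN1, TNC, NES and S100B were above it. S100B was at 3.26, 3.61 and 3.84 after P-bi-TAT and at 5.21, 4.69 and 4.28 in untreated cells, a difference of -1.16 that did not pass adjustment (unadjusted p = 0.0315 and adjusted p = 0.847 from limma) and was -0.64 after quantile normalization (unadjusted p = 0.140, limma) and -0.65 after median centring (unadjusted p = 0.235, limma). Of 21 measured markers of immune, endothelial, epithelial and neuronal cells and oligodendrocytes, 6 were below the negative control level in each group. Among those 6 were the epithelial genes EPCAM, CDH1 and KRT5. PTPRC and CD14 of the immune markers were above it only in untreated cells, and the endothelial gene PECAM1 only after P-bi-TAT. Above it in each group were 4 of 6 immune, 2 of 4 endothelial, 1 of 4 epithelial, 3 of 4 neuronal and 2 of 3 oligodendrocyte markers. The immune marker CD68 was far above it, at 10.81, 12.97 and 12.62 after P-bi-TAT and at 12.34, 11.43 and 11.97 in untreated cells. MOG, an oligodendrocyte gene, was at 3.47, 3.20 and 3.37 after P-bi-TAT and at 3.89, 4.82 and 4.32 in untreated cells (unadjusted p = 0.0478 and adjusted p = 0.847 from limma). Its difference was -0.35 after quantile normalization (unadjusted p = 0.467, limma) and -0.49 after median centring (unadjusted p = 0.402, limma). The part of these differences in the p53 targets was not tested.

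With all 6 arrays, no difference of the 8 p53 targets between P-bi-TAT and untreated cells exceeded the spread between arrays by limma. At an adjusted p under 0.05 limma called 0 of the 8 genes and 0% of all genes (914 of them had an unadjusted p under 0.05), and 0 of the 8 passed the limits of 1.5-fold and an unadjusted p under 0.05. Of all 17687 genes, 0.192% were higher and 4.98% lower at those limits. This split depended on the scaling of the arrays, with 34 genes higher and 880 lower on the deposited values, 675 and 552 after quantile normalization and 381 and 220 after median centring. The smallest adjusted p among the 8 genes was 0.857. Their median log2 difference was 0.02, against -0.43 over all genes, with 4 genes above 0 and 4 below, where 21.3% of all genes were above 0. Quantile normalization brought the median of the 8 to 0.50, against -0.00 over all genes, and median centring to 0.52, against 0.08. The median of the targets thus lay above that of all genes on each scale, while TP53I3, RRM2B and FAS lay below it on each. Not 1 of the 8 genes had groups that did not overlap, against 0.758% of all genes for higher and 14.5% for lower values after P-bi-TAT.

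Leaving out P-bi-TAT replicate 1 gave another picture, in which MDM2, CDKN1A and ZMAT3 were higher after P-bi-TAT at the weaker limits. These 3 of the 8 genes were at least 1.5-fold higher with an unadjusted p under 0.05 (limma), against 9.26% of all genes, and 0 were lower, against 5.31%. An adjusted p under 0.05 was reached by 0 of the 8 and by 0% of all genes, of which 2577 had an unadjusted p under 0.05. The median of the 8 differences was 0.96, against -0.01 over all genes, and 7 of the 8 were above 0, against 49.3% of all genes. In 5 of the 8 genes, MDM2, CDKN1A, SESN1, ZMAT3 and FAS, P-bi-TAT replicates 2 and 3 lay above each untreated array, against 19.1% of all genes. All 8 genes were above the negative control level in each group, as were 11984 of the 17687 genes. Without P-bi-TAT replicate 1, medians were also above that of all genes for regulators of p53 (0.50), glioma markers (0.40) and neuronal markers (0.27). They were below it for immune (-0.48), endothelial (-0.19), epithelial (-0.71) and oligodendrocyte markers (-0.15). The part of signal level in these and later shares was not tested. The treated group was then made of 2 arrays that are more alike than any pair of untreated arrays, which correlated at 0.923 to 0.953. Separate cultures are named neither in the labels nor in the methods, and the p-values therefore measure only how much these samples vary, which may be technical.

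**Figure D1:**
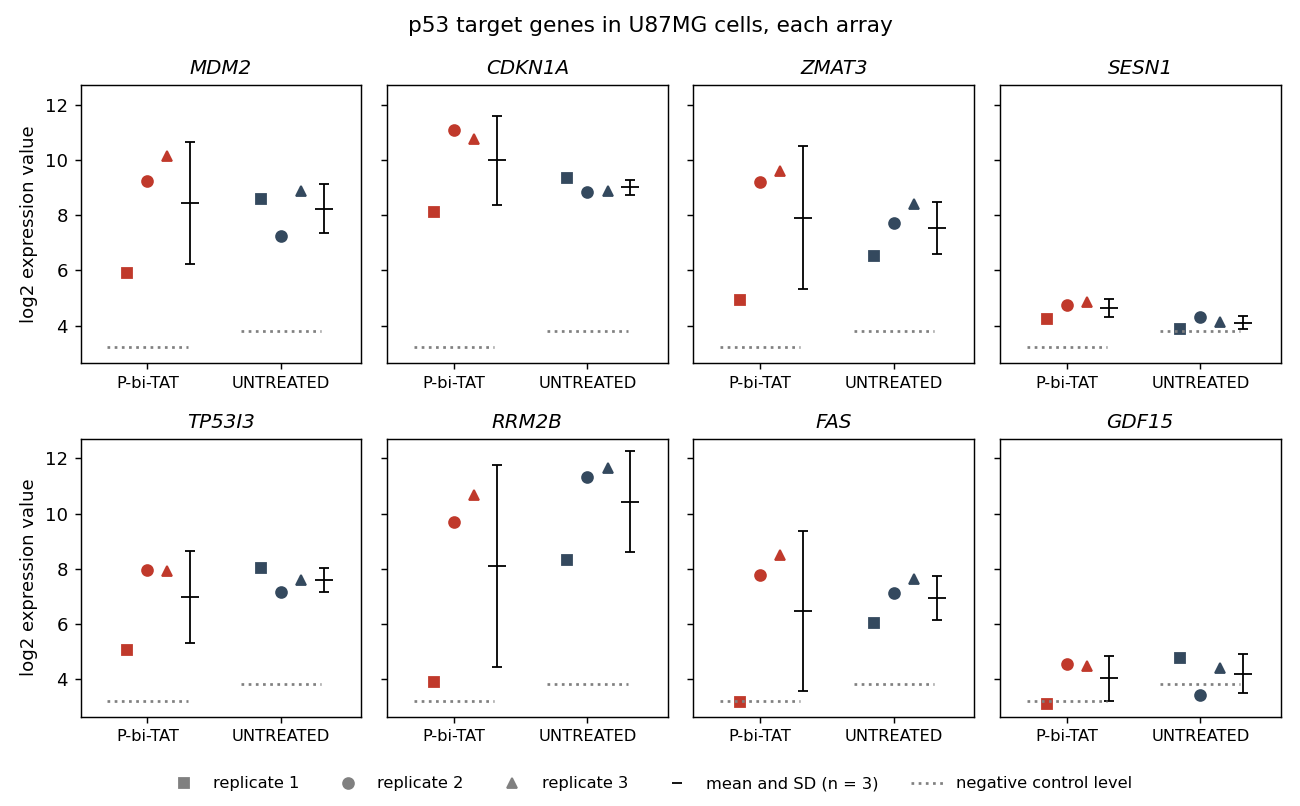
Log2 expression values of the 8 measured p53 target genes in each array, P-bi-TAT left of UNTREATED in each panel, with symbols for the replicate, bars for the mean and SD (n = 3 each) and dotted lines for the negative control level of the group. P-bi-TAT replicate 1 is the lowest of the 6 arrays for 7 of the 8 genes, and replicates 2 and 3 differ by 0.01 to 0.95.

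The feedback gene MDM2 was at 5.92, 9.25 and 10.13 in P-bi-TAT replicates 1, 2 and 3, against 8.60, 7.23 and 8.87 in untreated replicates 1, 2 and 3. The treated values lay on both sides of the untreated ones, so the groups overlapped. The means were 8.43 ± 2.22 after P-bi-TAT and 8.24 ± 0.88 in untreated cells (SD, n = 3 each), 0.20 apart on the log2 scale, with a standard error of 1.11 (adjusted p = 0.974, limma). When P-bi-TAT replicate 1 was dropped, the difference was 1.45 with a standard error of 0.57, or 2.74-fold (limma, adjusted p = 0.313 and unadjusted p = 0.0342). Quantile normalization of the remaining arrays brought it to 1.07, which did not pass the limits (limma, unadjusted p = 0.102). MDM2 carries the response element printed above in its downstream promoter. The array reads the gene with 1 probe set, so transcripts from its upstream and downstream promoters were not told apart.

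CDKN1A encodes p21, the inhibitor of cyclin-dependent kinases through which p53 stops cells before DNA replication. It was at 8.12, 11.07 and 10.76 after P-bi-TAT, against 9.33, 8.84 and 8.86 in untreated cells. Replicates 2 and 3 were above each untreated array and replicate 1 was below each of them. The untreated arrays lay close together, within a range of 0.49, the smallest of the 8 genes after SESN1. The means were 9.98 ± 1.62 after P-bi-TAT and 9.01 ± 0.28 in untreated cells (SD, n = 3 each), with a difference of 0.97 and a standard error of 0.81 (adjusted p = 0.868, limma). This was the highest difference among the 8 genes, and after median centring of the 6 arrays it was 1.48 and passed the 1.5-fold limits (limma, adjusted p = 1.0 and unadjusted p = 0.0237). With P-bi-TAT replicate 1 excluded, CDKN1A had a difference of 1.91 with a standard error of 0.39, or 3.75-fold, and the lowest p of the 8 genes (limma, adjusted p = 0.158 and unadjusted p = 0.00111).

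ZMAT3, a zinc finger protein that binds RNA and acts in splicing downstream of p53, was at 4.93, 9.20 and 9.59 after P-bi-TAT, against 6.51, 7.70 and 8.39 in untreated cells. As for MDM2, replicate 1 was below the untreated range and replicates 2 and 3 lay above it. The difference was 0.37 with a standard error of 1.26 (adjusted p = 0.958, limma) over all arrays. Without P-bi-TAT replicate 1 it was 1.86 with a standard error of 0.57, or 3.63-fold (limma, adjusted p = 0.235 and unadjusted p = 0.0107).

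FAS encodes a death receptor of the cell surface that starts apoptosis when its ligand binds. Its values were 3.16, 7.78 and 8.51 after P-bi-TAT, against 6.05, 7.13 and 7.62 in untreated cells. In P-bi-TAT replicate 1 it did not exceed the negative control median of that array, and 142 other gene probe sets had the same value there. The difference was -0.45 with a standard error of 1.37 (adjusted p = 0.954, limma) over the 6 arrays as deposited, -0.41 after quantile normalization and 0.06 after median centring of the 6 arrays, and 1.22 with a standard error of 0.54 without that array (limma, adjusted p = 0.356 and unadjusted p = 0.0529). The FAS site printed above has the same number of mismatches as that of MDM2.

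SESN1, a sestrin that restrains growth signalling through mTORC1 under stress, was at 4.25, 4.76 and 4.87 after P-bi-TAT, against 3.87, 4.32 and 4.12 in untreated cells. It was the only gene of the 8 that lay above the untreated mean in each P-bi-TAT array, although replicate 1 was below the highest untreated array. Its signal was low, higher than 80.1% to 85.9% of the 612 negative controls in P-bi-TAT arrays and than 48.7% to 64.9% of them in untreated arrays. The difference was 0.52 with a standard error of 0.40 (adjusted p = 0.857, limma), and 0.71 with a standard error of 0.38 without P-bi-TAT replicate 1 (unadjusted p = 0.0934, limma). After quantile normalization of the 6 arrays it was 1.25 (limma, adjusted p = 0.719 and unadjusted p = 0.0281). After median centring it was 1.03 and did not pass the limits (limma, unadjusted p = 0.0587). The negative control level was itself lower after P-bi-TAT, as given above, and its part in this difference was not tested.

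TP53I3 encodes a quinone oxidoreductase linked to the production of reactive oxygen species after p53 activation. It was at 5.07, 7.94 and 7.93 after P-bi-TAT, against 8.02, 7.15 and 7.60 in untreated cells. Replicates 2 and 3 lay within the untreated range. The difference was -0.61 with a standard error of 0.83 (adjusted p = 0.897, limma) and 0.34 with a standard error of 0.41 without P-bi-TAT replicate 1 (unadjusted p = 0.429, limma).

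RRM2B, the small subunit of ribonucleotide reductase that supplies nucleotides for DNA repair, varied most. It was at 3.91, 9.71 and 10.66 after P-bi-TAT, against 8.32, 11.32 and 11.64 in untreated cells. Untreated replicate 1 was the lowest in an untreated range of 3.32, the widest of the 8 genes, and P-bi-TAT replicates 2 and 3 lay within that range. The difference was -2.33 with a standard error of 1.83 (adjusted p = 0.859, limma), and P-bi-TAT replicate 1 alone was at -6.51 from the untreated mean. Without that array the difference was -0.24 with a standard error of 0.93 (unadjusted p = 0.798, limma).

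GDF15, a secreted factor of the TGF-beta superfamily that many kinds of stress induce, was at 3.10, 4.55 and 4.46 after P-bi-TAT, against 4.77, 3.43 and 4.41 in untreated cells. It was not above the negative control median in P-bi-TAT replicate 1 or in untreated replicate 2. The value in P-bi-TAT replicate 1 was shared with 552 other gene probe sets. The difference was -0.16 with a standard error of 0.59 (adjusted p = 0.960, limma), 0.20 after quantile normalization, 0.34 after median centring, and 0.30 with a standard error of 0.48 without that array (unadjusted p = 0.544, limma). The values of GDF15 thus lay near background.

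**Figure D2:**
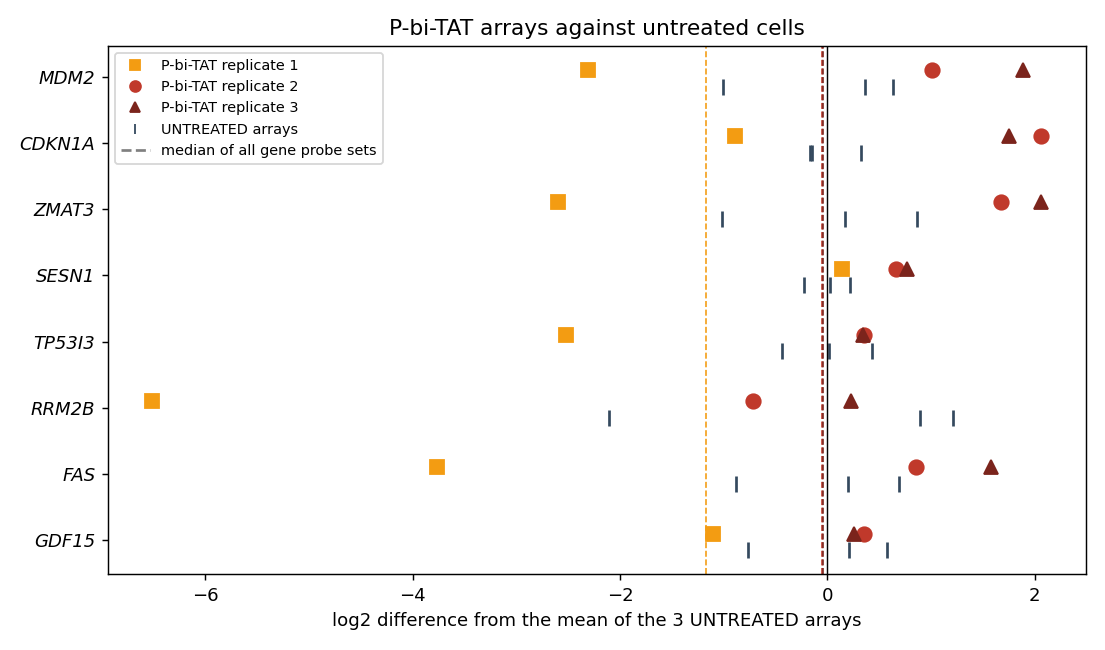
Log2 difference of each P-bi-TAT array (symbols) and each UNTREATED array (ticks) from the mean of the 3 UNTREATED arrays, for the 8 genes, with dashed lines at the median of all gene probe sets in each P-bi-TAT array (-1.17, -0.05 and -0.04 in replicates 1, 2 and 3). The genes spread from -6.51 to 0.14 in replicate 1, and lie between -0.72 and 2.06 in replicate 2 and between 0.23 and 2.06 in replicate 3.

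Taken array by array, the 8 genes had a median difference from the untreated mean of -2.42 in P-bi-TAT replicate 1, 0.75 in replicate 2 and 1.17 in replicate 3. Over all genes these medians were -1.23, -0.02 and -0.00. In replicate 1, 7 of the 8 genes were below the untreated mean, as were most genes, since only 8.44% of all genes were above it. In replicate 2, 7 of the 8 were above it, against 48.9% of all genes, and in replicate 3 all 8 were, against 49.9%. Being above the untreated mean in replicates 2 and 3 and below it in replicate 1 described 6 of the 8 genes and 36.8% of all genes.

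The rank of a gene within its own array is not moved by the scale of that array, so it was compared as well. CDKN1A was at the 93.3, 93.4 and 92.3 percentile of gene probe sets in P-bi-TAT replicates 1, 2 and 3, against 88.4, 85.0 and 84.8 in untreated cells. Here P-bi-TAT replicate 1 stood with the other treated arrays, and the groups did not overlap (two-sided exact permutation test, p = 0.1, which is the lowest p this design can give). SESN1 was at the 66.5, 50.3 and 51.1 percentile after P-bi-TAT, against 30.0, 41.1 and 37.7 in untreated cells (exact permutation test, two-sided p = 0.1). These 2 of the 8 genes had ranks above each untreated array in every P-bi-TAT array, against 7.41% of all genes. For SESN1 the rank was highest in P-bi-TAT replicate 1, where 27 other gene probe sets had the same value. Ranks in that array, with its 4527 distinct values, also departed from those of replicates 2 and 3 in other genes. BAX was at the 93.4 percentile there, against 87.4 and 88.8, and PHLDA3 at 81.6, against 68.8 and 74.2, while FAS and RRM2B were lower there. The part of this in the ranks of CDKN1A and SESN1 was not tested. The 8 rank tests were not adjusted, since none could pass in this design.

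The other genes overlapped in rank. MDM2 was at the 83.7, 85.5 and 89.8 percentile after P-bi-TAT, against 84.6, 74.4 and 84.8 in untreated cells (exact permutation test, two-sided p = 0.4). ZMAT3 was at 75.3, 85.2 and 87.1 after P-bi-TAT, against 69.8, 77.8 and 81.9 in untreated cells (exact permutation test, two-sided p = 0.3). Both had their highest ranks in P-bi-TAT replicates 2 and 3. TP53I3 kept nearly the same mean rank, 76.8 after P-bi-TAT and 77.1 in untreated cells. FAS, at the 36.0 percentile in P-bi-TAT replicate 1 and at 75.9 and 80.8 in replicates 2 and 3, was at 65.3 to 76.3 in untreated cells. RRM2B was at 60.6, 88.0 and 91.9 after P-bi-TAT and at 83.0, 95.0 and 95.7 in untreated cells. GDF15 was at 32.8, 48.0 and 46.3 after P-bi-TAT and at 48.5, 20.1 and 43.3 in untreated cells. For ZMAT3, FAS and RRM2B the lowest rank in each group was that of replicate 1.

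**Figure D3:**
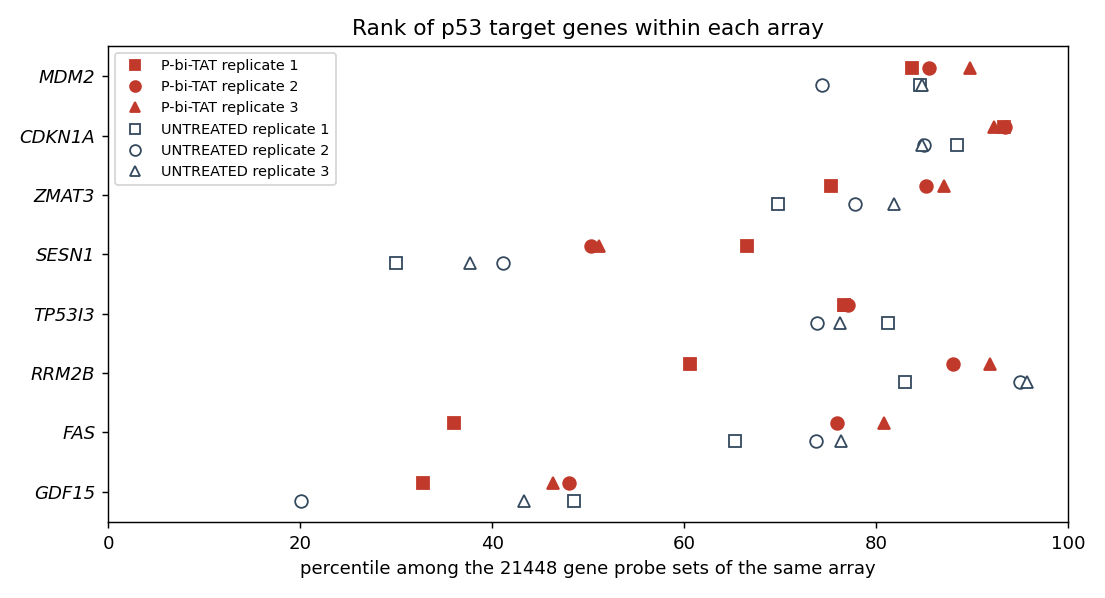
Percentile of each p53 target gene among the 21448 gene probe sets of the same array, for P-bi-TAT (filled, upper row of each gene) and UNTREATED (open, lower row), with symbols for the replicate. CDKN1A and SESN1 have all P-bi-TAT arrays above all UNTREATED arrays, and FAS and RRM2B have P-bi-TAT replicate 1 far below the other arrays.

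Genes elsewhere on the array were ranked by how closely they followed MDM2 and CDKN1A. The nearest were picked from these same values out of 11983 genes. That they lie nearer than the other targets was therefore nearly certain beforehand and says nothing of those targets. Likeness was the root mean square difference of log2 values over the 6 arrays after each gene's own mean was taken off, among 11983 genes above the negative control level in each group. The genes most like MDM2 were ELK4 (0.22), C2orf76 (0.25) and USP25 (0.25), where the median over all compared genes was 1.07. The genes most like CDKN1A were ZNF410 (0.07), DHX30 (0.12) and PRELID1 (0.12), against a median of 1.03. CDKN1A ranked 1833 in likeness to MDM2, with a difference of 0.77, and TP53I3 was the nearest to MDM2 among the 8 targets described here, at rank 886 with 0.66. ZMAT3 (0.80), GDF15 (0.88) and FAS (0.88) were also nearer to MDM2 than the median gene, and SESN1 (1.26) was not. RRM2B was the least like MDM2 of the 8, at rank 11958 with 1.99. Nearer to CDKN1A than the median gene were MDM2 (0.77), GDF15 (0.80), TP53I3 (0.81), SESN1 (0.84) and ZMAT3 (0.96). FAS (1.23) and RRM2B (2.39) were farther from CDKN1A than that. The likeness is a description of these 6 arrays, P-bi-TAT replicate 1 among them.

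Other genes that act on p53 or answer to it were read from lists of known regulators and targets. Of 17 measured regulators of p53, with all 6 arrays 0 passed the limits of 1.5-fold and an unadjusted p under 0.05 in either direction (limma), and their median was -0.53 where that of all genes was -0.43. MDM4, a relative of MDM2 that blocks the activity of p53, was at 3.69, 6.80 and 7.39 after P-bi-TAT and at 5.14, 6.62 and 7.38 in untreated cells. PPM1D, a phosphatase that is a p53 target and shuts the response down, was at 4.76, 7.58 and 7.66 after P-bi-TAT and at 6.38, 8.41 and 7.29 in untreated cells. For each of them P-bi-TAT replicates 2 and 3 overlapped the untreated arrays. With P-bi-TAT replicate 1 excluded, the median was 0.50, against -0.01 over all genes, and 2 of the 17 regulators passed those limits as higher, a share near the 9.26% of all genes. They were USP7, a deubiquitinase of MDM2 and p53 (1.91, standard error 0.63, and 0.32 with all 6 arrays), and PML, the scaffold of nuclear bodies (1.69, standard error 0.55, and 0.56 with all 6 arrays), both picked out after seeing their values.

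Among 40 other measured p53 targets, 0 were higher and 1 was lower at the same limits with all 6 arrays, and their median log2 difference was -0.31, against -0.43 over all genes. With P-bi-TAT replicate 1 excluded, 4 were higher and 1 was lower, with a median of 0.41, against -0.01 over all genes. Of all genes 9.26% were higher and 5.31% lower, so the share of higher targets at these limits was near that of all genes. Differences above 0 were found in 28 of the 40, against 49.3% of all genes. P-bi-TAT replicates 2 and 3 lay above each untreated array in 14 of the 40, against 19.1% of all genes, and below each in 3, against 17.9%. The 4 higher at the limits were AEN and PMAIP1, which act in cell death, TIGAR, and BLOC1S2, which was picked out after seeing its value (1.71, and -0.12 with all 6 arrays). AEN, a nuclease induced by p53 in apoptosis and a gene with a site printed above, was at 7.66, 11.53 and 11.43 after P-bi-TAT and at 10.13, 8.84 and 9.54 in untreated cells. With all 6 arrays the difference was 0.70 with a standard error of 1.07 (unadjusted p = 0.533, limma). Without P-bi-TAT replicate 1 it was 1.98 with a standard error of 0.46 (limma, adjusted p = 0.175 and unadjusted p = 0.00264). PMAIP1, which encodes the BH3-only protein NOXA, was at 2.57, 5.69 and 5.71 after P-bi-TAT and at 3.87, 4.28 and 4.80 in untreated cells, a difference of 0.34 with all 6 arrays (standard error 0.89) and of 1.38 without P-bi-TAT replicate 1 (standard error 0.42, unadjusted p = 0.0104, adjusted p = 0.232, limma). BAX, the pore-forming effector of mitochondrial apoptosis, was at 8.12, 9.61 and 9.92 after P-bi-TAT and at 9.26, 9.33 and 9.05 in untreated cells. The death receptor gene TNFRSF10B was at 5.05, 8.09 and 7.67 after P-bi-TAT and at 8.07, 8.07 and 8.20 in untreated cells. P-bi-TAT replicates 2 and 3 exceeded each untreated array for the death receptor gene FAS and not for TNFRSF10B, a contrast that was not tested. TP53INP1 and PHLDA3 overlapped between the groups. The difference of TP53INP1 was 0.51 (standard error 0.92) with all 6 arrays and 1.25 (standard error 0.74) without P-bi-TAT replicate 1, and that of PHLDA3 was -0.54 (standard error 0.58) and -0.01 (standard error 0.43).

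Targets of the cell cycle and DNA repair list held the gene that was lower. POLH, the DNA polymerase eta that copies past ultraviolet lesions, was at 3.21, 6.54 and 6.37 after P-bi-TAT and at 7.51, 7.45 and 7.88 in untreated cells. The groups did not overlap, with the treated arrays the lower ones, as for 14.5% of all genes, in a gene that p53 is known to raise. The difference was -2.24 with a standard error of 0.90 (limma, adjusted p = 0.847 and unadjusted p = 0.0425), and -1.16 with a standard error of 0.38 without P-bi-TAT replicate 1. DDB2, a sensor of ultraviolet damage whose site is printed above, was at 4.82, 7.23 and 7.49 after P-bi-TAT and at 6.07, 6.31 and 7.17 in untreated cells. CCNG1, which encodes cyclin G1, was at 4.52, 9.80 and 10.30 after P-bi-TAT and at 6.26, 8.75 and 9.57 in untreated cells. In both genes P-bi-TAT replicates 2 and 3 were above each untreated array, as in 19.1% of all genes. XPC, a nucleotide excision repair protein, had a difference of -0.38 with all 6 arrays (standard error 0.64) and of 0.28 without P-bi-TAT replicate 1 (standard error 0.39). GADD45A, a growth arrest gene, had one of -0.50 with all 6 arrays (standard error 0.80) and of 0.38 without that array (standard error 0.44).

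Among metabolic and other targets, TIGAR, which lowers glycolytic flux, was at 3.86, 8.33 and 8.36 after P-bi-TAT and at 7.73, 5.28 and 7.17 in untreated cells. The difference was 0.12 with all 6 arrays (standard error 1.32). When P-bi-TAT replicate 1 was dropped, it was 1.62 with a standard error of 0.68 (limma, adjusted p = 0.335 and unadjusted p = 0.0445). SESN2, the relative of SESN1, was at 4.75, 6.85 and 6.60 after P-bi-TAT and at 6.91, 7.35 and 5.90 in untreated cells, a difference of -0.66 with all 6 arrays (standard error 0.70) and of 0.00 without P-bi-TAT replicate 1 (standard error 0.50). RPS27L, a ribosomal protein paralog, was at 10.42, 13.00 and 12.48 after P-bi-TAT and at 12.30, 12.24 and 12.99 in untreated cells, so its groups overlapped.

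Genes that p21 lowers through the DREAM repressor complex were set beside CDKN1A, since they are the usual readout of its activity. Of these 21 genes, all measured, 0 passed the limits with all 6 arrays in either direction (limma), and their median log2 difference was -0.68, against -0.43 over all genes. In P-bi-TAT replicate 1 all 21 were below the untreated mean, where 8.44% of all genes were above it. Without that array 18 of the 21 were above 0, against 49.3% of all genes, with a median of 0.44, against -0.01. The same limits were passed by 2 as higher, a share near the 9.26% of all genes, and by 0 as lower, against 5.31%. BIRC5, which encodes survivin, was at 6.11, 10.34 and 10.31 after P-bi-TAT and at 7.99, 7.69 and 6.50 in untreated cells, a difference of 1.53 with all 6 arrays (standard error 1.18, unadjusted p = 0.236, limma) and of 2.93 without P-bi-TAT replicate 1 (standard error 0.51, unadjusted p = 0.000371, adjusted p = 0.136, limma). CDK1, the mitotic kinase, was at 7.43, 11.41 and 11.70 after P-bi-TAT and at 8.08, 10.53 and 10.39 in untreated cells. Its difference was 0.51 with all 6 arrays (standard error 1.26) and 1.88 without P-bi-TAT replicate 1 (standard error 0.72). For BIRC5 and CDK1, P-bi-TAT replicates 2 and 3 were above each untreated array, as for 19.1% of all genes.

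Other genes of this list had differences closer to 0 without that array. The kinase gene PLK1 was at 14.54, 15.35 and 15.04 after P-bi-TAT and at 15.79, 14.73 and 14.87 in untreated cells. Over P-bi-TAT replicates 2 and 3 and the untreated arrays, the cyclin gene CCNB1 had a difference of 0.24 (standard error 0.43), the mitotic exit gene CDC20 one of 0.44 (standard error 0.37) and TOP2A, a DNA topoisomerase, one of 0.91 (standard error 1.23). With all 6 arrays each of these was below 0, at -0.31 for CCNB1 (standard error 0.60), -0.78 for CDC20 (standard error 1.00) and -1.41 for TOP2A (standard error 2.13). RRM2, the S-phase counterpart of RRM2B, was at 11.86, 14.14 and 13.86 after P-bi-TAT and at 13.05, 13.17 and 13.27 in untreated cells, so replicates 2 and 3 were above the untreated arrays for RRM2 and not for RRM2B.

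**Figure D4:**
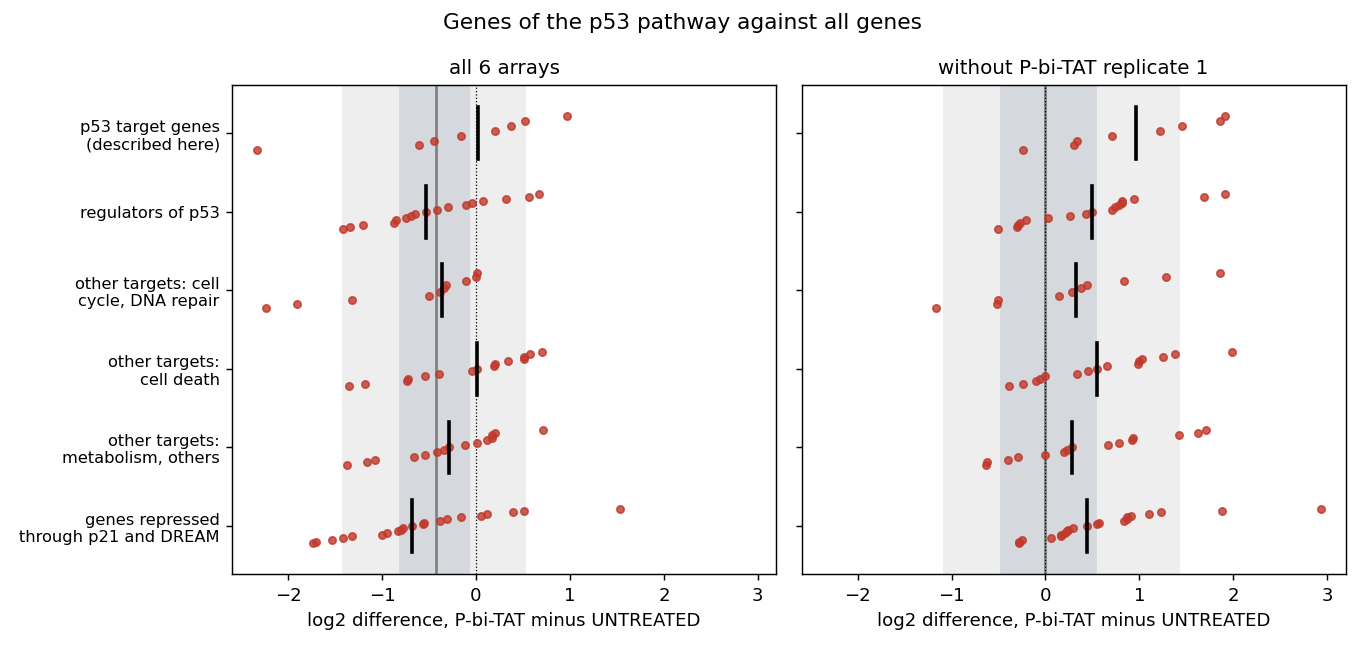
Log2 difference of P-bi-TAT minus UNTREATED for each gene (points) of the p53 pathway lists, with the median of each list (black bar), in the fit with all 6 arrays (left) and without P-bi-TAT replicate 1 (right). The grey line is the median of all 17687 genes and the shaded bands hold the middle of their distribution (quartiles, dark, and the 5th to 95th percentile, light). The list medians run from -0.68 to 0.02 on the left and from 0.28 to 0.96 on the right, where the 8 targets described here have the highest.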

How the data were processed

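Total RNA of U87MG cells was measured on 6 Affymetrix Clariom S arrays, 3 after P-bi-TAT and 3 untreated. The values deposited by the authors are on a log2 scale. RMA and version 4.0.1.36 of the Transcriptome Analysis Console stand in the submitters' processing notes, but SST-RMA and another version in the methods, so the exact method stays unknown. The values were used unchanged, although the arrays differ in distribution. Groups and replicate numbers came from the sample titles. After removal of 2903 control probe sets, limma 3.58.1 (lmFit, then eBayes, under R 4.3.3) tested 21448 gene probe sets, P-bi-TAT minus untreated, with Benjamini-Hochberg adjustment over all of them. Symbols came from the platform annotation, and of several probe sets of a gene the brightest on average was used. The methods' one-way test and 1.5-fold limit were used as an alternative and as a count. The fit was tested on simulated data. Differences of single ranks were tested by exact permutation with scipy 1.17.1. The genes and lists were chosen with earlier results of these data known. Named were the 8 genes, regulators, targets and repressed genes fixed by symbol, listed genes past the 1.5-fold limits with all arrays, and the 3 genes most like MDM2 and the 3 most like CDKN1A. Other listed genes named for their values are marked as such. BTG2 and FDXR, also to be named, were not analysed here. The alternatives left out each array, used the replicate number as a block, changed scaling, floor, filter, variance model, weights or test, or averaged probe sets.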

Additional observations from a re-analysis of the deposited data

How the results depend on the processing

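Under all 16 alternatives 0 of the 8 p53 targets passed an adjusted p under 0.05, and the adjusted p of CDKN1A was lowest with array weights (0.0670). Leaving out each array in turn, the median difference of the 8 genes lay between -0.56 and 0.96, and the number at 1.5-fold and an unadjusted p under 0.05 between 0 and 3 for higher, the 3 being without P-bi-TAT replicate 1. For all genes those counts ran from 7 to 1638 for higher and from 568 to 939 for lower. The log2 difference ran from -0.65 to 1.45 for MDM2, -0.47 to 1.86 for ZMAT3, -1.46 to 1.22 for FAS, -1.09 to 0.34 for TP53I3 and -0.55 to 0.30 for GDF15, each changing sign, while CDKN1A and SESN1 stayed above 0 and RRM2B below 0 under all 16 alternatives. The median difference in percentile rank over the 8 genes, 5.07 points, ran from -0.169 (without untreated replicate 2) to 6.67. Quantile normalization gave 2 higher targets (CDKN1A, SESN1), 675 higher and 552 lower genes, and 0.20 for GDF15. Median centring gave 1 higher target (CDKN1A), 381 higher and 220 lower genes, 0.34 for GDF15 and 0.06 for FAS. Quantile normalization of the 5 arrays other than P-bi-TAT replicate 1 gave 2 higher targets (CDKN1A, ZMAT3), 992 higher and 857 lower genes, 0.48 for GDF15 and 0.85 for FAS. Array weights gave 3 higher targets (MDM2, CDKN1A, ZMAT3), 1928 higher and 1694 lower genes, 0.39 for GDF15, 0.37 for TP53I3 and 1.06 for FAS. A floor at the negative control median gave 4096 lower genes, and leaving out the dimmest genes 12 higher and 276 lower. The causes were not tested. With the replicate number as a block 1 target was lower (RRM2B, -2.33, unadjusted p = 0.0226, adjusted p = 0.847, limma) and 30 genes were higher and 765 lower. Same-numbered arrays had correlations of deviations of 0.304, 0.036 and 0.333, and differently numbered ones of -0.378 to 0.150. Not every same-numbered pair was above 0.1, so the numbers were not taken to pair the arrays, and the labels do not say whether they do. GDF15 and SESN1 lie near the negative controls, where signal limits what can be read.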
